A study of Mus musculus with 8 samples.

Results

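The BMP and TGF-beta family, with its receptors, Smads and secreted antagonists, was examined in enteric neural crest-derived cells (ENCDCs) and in the other cells of the fetal mouse bowel. Members were taken by gene symbol (Bmp, Gdf, Tgfb, *Inha* and Inhb ligands, Bmpr, Acvr and Tgfbr receptors, Smads, *Nog*, *Chrd*, *Grem1*, *Fst* and *Bambi*). The symbols matched 50 of the 29092 genes in the table, of which 49 are described, each with a count in at least 1 library. *Bmp10*, *Bmp15*, *Gdf1* and *Inhbe* had no row and were not analysed here.

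The mRNA libraries came from E13.5 mouse bowel, stomach to anus, of GFP+ embryos from crosses of heterozygous *Ednrb-EGFP* and wild-type C57BL/6J mice. Cells were dissociated and sorted into GFP+ ENCDCs and GFP- gut cells, with 4 libraries of each from 750 pg of RNA. The labels call the genotype wild-type, and both populations carry the reporter, in which GFP marks cells that use the *Ednrb* gene. RNA of more than 1 sample was combined where needed, so p-values measure the spread between these libraries, which may be technical. Gut cells are a mixture of mesenchyme, muscle, epithelium, vessels and blood cells rather than a single cell type. Strand is lost in the cDNA step, so reads of overlapping genes on opposite strands cannot be told apart.

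Total counts were 13250893 to 13267220 per library. Across genes, ENCDC libraries correlated with each other at 0.906 to 0.951, gut libraries at 0.938 to 0.948, and ENCDC with gut libraries at 0.798 to 0.819. All 10 markers of enteric crest cells and neurons were higher in ENCDCs, where they made up 0.403% to 0.468% of counts against 0.00592% to 0.00739% in gut cells. No marker of other bowel cells was at 0 in all 4 ENCDC libraries. Summed mesenchyme markers stood at 4.24% to 15.0% of the gut mean and smooth muscle markers at 2.61% to 17.3%, with the highest value of both in ENCDC replicate 3. Epithelial markers stood at 8.72% to 17.9%, endothelial markers at 15.2% to 24.2%, mesothelial markers at 1.97% to 8.98%, macrophage markers at 0.522% to 1.4% and erythroid markers at 0.519% to 1.47%.

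Ligands of this family are secreted dimers that bring together type I and type II receptor kinases. BMPs and many GDFs lead to phosphorylation of Smad1, Smad5 and Smad9, while TGF-betas and activins act through Smad2 and Smad3, and both groups join Smad4 on DNA. Smad6 and Smad7 restrain the receptors from inside, and secreted proteins such as noggin, chordin, gremlin and follistatin hold ligands away from them. In the fetal bowel, BMPs are known to act on the migration, clustering and differentiation of ENCDCs.

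In the edgeR quasi-likelihood test across 18866 genes, 47 of the 49 members were tested and 34 passed an adjusted p of 0.05. In ENCDCs, 5 members (10.6%) were higher, against 17.0% of all genes tested, and 29 (61.7%) were lower, against 20.9% of all genes. The median log2 fold change of the members, ENCDCs over gut cells, was -2.02, beside -0.0408 for all genes. For 5 members every ENCDC library was above every gut library, as for 16.9% of all genes, and for 30 members every gut library was above every ENCDC library, as for 21.3% of all genes. In bulk RNA from sorted cells, fewer cells that use a gene and less of its RNA per cell cannot be told apart. The 5 higher members were *Tgfb2*, *Bmp7*, *Acvr2b*, *Smad2* and *Smad1*, that is 2 ligands, 1 type II receptor and 2 Smads.

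**Figure D1:**
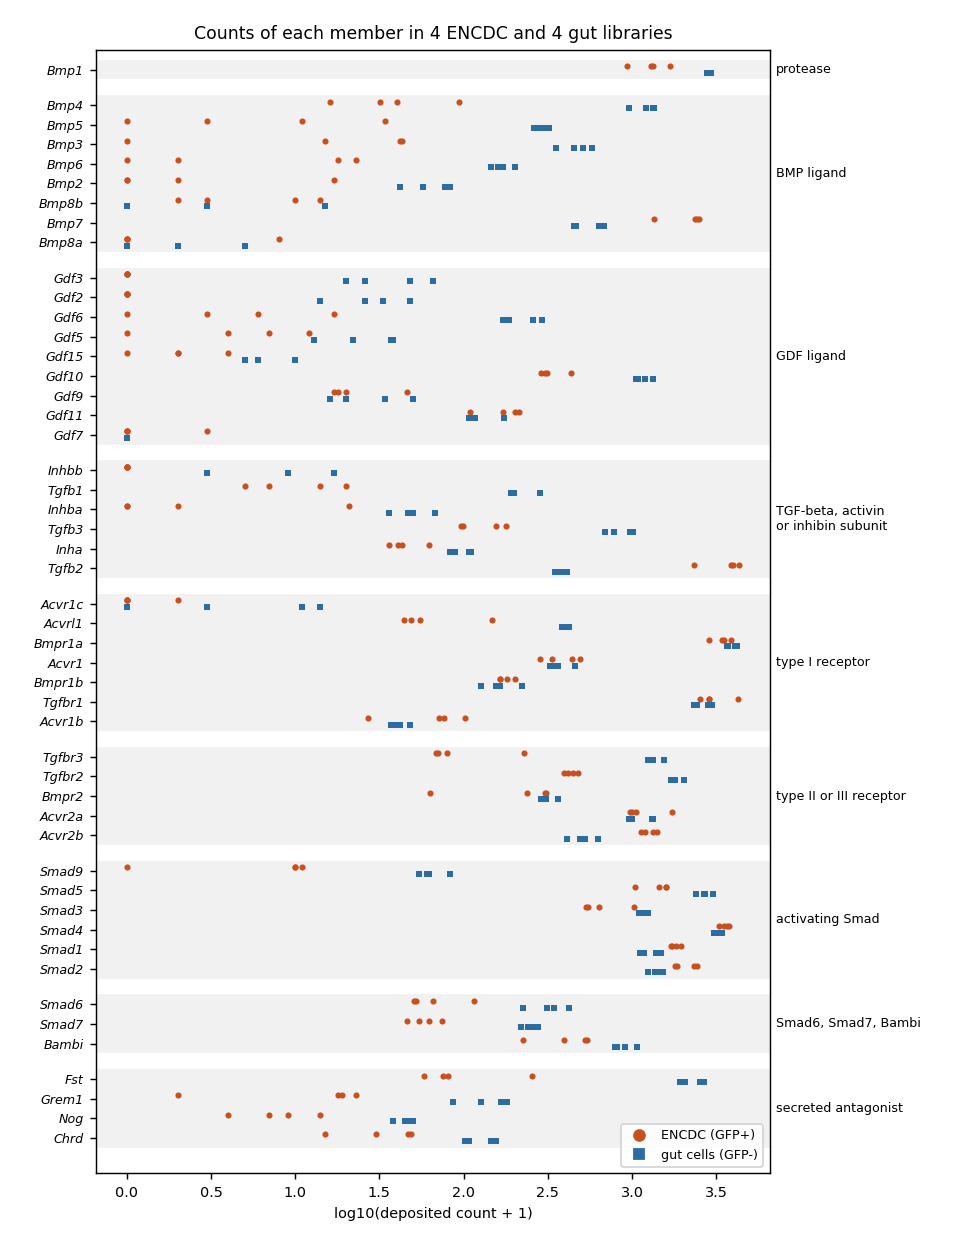
Deposited counts of the 49 members in each library, as log10(count + 1) on the horizontal axis, with circles for the 4 ENCDC libraries, squares for the 4 gut libraries and genes grouped by role. The circles lie to the right of the squares for *Tgfb2*, *Bmp7*, *Acvr2b*, *Smad1* and *Smad2* and to their left for most ligands, antagonists and inhibitors.

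Counts below are as deposited and follow replicates 1 to 4 of each population. Fold changes are log2 of ENCDCs over gut cells with their standard error (SE), and p-values are Benjamini-Hochberg adjusted over all genes tested.

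Among the 3 TGF-beta ligands, *Tgfb2* was higher in ENCDCs, as were 17.0% of all genes. *Tgfb1* and *Tgfb3* were lower, as were 20.9% of all genes. Counts of *Tgfb2* (chr1:186622792-186705989, minus strand, GRCm38) were 4316, 3978, 2331 and 3883 in ENCDCs and 397, 379, 409 and 348 in gut cells. The lowest ENCDC library, replicate 3, was still far above the highest gut library. Normalized counts of *Tgfb2* averaged 3695 ± 918 and 377 ± 24.8 (SD, n = 4 each), a 9.80-fold difference (log2 fold change 3.29, SE 0.19, adjusted p = 2.27e-07). Counts of *Tgfb1* (chr7:25687002-25705077, plus strand) were 6, 13, 4 and 19 in ENCDCs and 285, 196, 190 and 197 in gut cells. Every gut library was at least 190, and no ENCDC library passed 19 (log2 fold change -4.30, SE 0.46, adjusted p = 2.92e-05). Counts of *Tgfb3* (chr12:86056745-86079041, minus strand) were 98, 96, 178 and 154 in ENCDCs and 692, 782, 1006 and 966 in gut cells. The populations did not overlap (log2 fold change -2.66, SE 0.24, adjusted p = 6.68e-06).

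Counts per kilobase of exon allow the ligands to be set against each other within a library. Of the summed *Tgfb1*, *Tgfb2* and *Tgfb3* level per kilobase, *Tgfb2* made up 96.1%, 95.7%, 88.3% and 93.2% in ENCDCs (93.3% ± 3.59, SD, n = 4). In gut cells it made up 20.8%, 19.5%, 17.4% and 15.6% (18.3% ± 2.29). *Tgfb3* held 69.6% ± 5.55 of that sum in gut cells and 6.39% ± 3.63 in ENCDCs, so the leading ligand by level differed between the populations. The shares have no test of their own, since they restate the counts above.

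The RefSeq promoters (GRCm38) of *Tgfb2*, which was higher in ENCDCs, and of *Tgfb1* and *Bmp4*, which were lower, are shown because these ligands of one family went opposite ways. Each is the 250 bases before the gene start, 5′ to 3′ on the strand of the gene, with matches to the motifs searched in capitals.
*Tgfb2* promoter: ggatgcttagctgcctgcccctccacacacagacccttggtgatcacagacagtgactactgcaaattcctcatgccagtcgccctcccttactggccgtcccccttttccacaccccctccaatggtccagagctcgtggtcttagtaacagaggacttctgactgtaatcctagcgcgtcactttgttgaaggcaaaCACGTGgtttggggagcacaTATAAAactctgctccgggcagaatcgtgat
*Tgfb1* promoter: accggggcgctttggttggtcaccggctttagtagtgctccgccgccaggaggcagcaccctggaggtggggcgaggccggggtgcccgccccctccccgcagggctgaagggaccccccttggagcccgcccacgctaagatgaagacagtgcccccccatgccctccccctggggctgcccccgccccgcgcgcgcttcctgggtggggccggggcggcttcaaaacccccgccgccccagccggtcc
*Bmp4* promoter: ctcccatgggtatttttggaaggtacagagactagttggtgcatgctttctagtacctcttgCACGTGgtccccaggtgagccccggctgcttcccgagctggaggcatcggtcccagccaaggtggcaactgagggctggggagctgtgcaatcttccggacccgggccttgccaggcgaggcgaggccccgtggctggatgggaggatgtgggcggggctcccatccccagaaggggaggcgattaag

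The windows lie at chr1:186705990-186706239 (minus strand) for *Tgfb2*, chr7:25686752-25687001 (plus strand) for *Tgfb1* and chr14:46390670-46390919 (minus strand) for *Bmp4*. G and C made up 53.6% of the *Tgfb2* window, 75.2% of the *Tgfb1* window and 63.2% of the *Bmp4* window. The *Tgfb2* window held an E-box (CACGTG) that begins 51 bases before the start and a TATA box (TATAAA) that begins 31 bases before it. *Bmp4* had an E-box that begins 188 bases before its start, and *Tgfb1* had no match. The search covered both strands for 5 motifs, none of which contains another, and the genes shown were chosen after their counts had been seen. Of 32851 promoters of the same length, 6.02% held CACGTG and 12.4% held TATAAA. Shares of all promoters are over promoter entries, while members are counted by gene. Of the 32 members with a promoter entry, 5 held CACGTG (*Acvr1b*, *Bmp4*, *Bmp6*, *Gdf15* and *Tgfb2*) and 5 held TATAAA (*Bmpr1b*, *Gdf11*, *Gdf2*, *Inhba* and *Tgfb2*). The GC-rich Smad site GGCGCC was in 7 member promoters (*Bmpr1a*, *Bmpr2*, *Chrd*, *Grem1*, *Smad5*, *Smad9* and *Tgfbr1*) and in 9.59% of all promoters. The palindromic Smad box GTCTAGAC and the cAMP response element TGACGTCA were in no member promoter, against 0.167% and 1.55% of all promoters. A match is a run of letters, and no binding was measured.

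Activin and inhibin subunits were all lower in ENCDCs, at low counts, as were 20.9% of all genes. *Inha*, the alpha subunit of inhibins, had counts of 40, 35, 61 and 42 in ENCDCs and 106, 82, 88 and 110 in gut cells. *Inha* did not overlap between the populations (log2 fold change -1.07, SE 0.33, adjusted p = 0.0268), yet its call was lost in 6 of the 8 fits that left out 1 library (adjusted p 0.0503 to 0.0746). *Inhba*, which forms activin A, had counts of 1, 0, 0 and 20 in ENCDCs and 35, 46, 49 and 67 in gut cells. Its call was at the threshold (log2 fold change -3.14, SE 1.14, adjusted p = 0.04997). Without ENCDC replicate 4, which held nearly all of its ENCDC counts, the log2 fold change of *Inhba* was -6.72, and the call was lost in 6 other fits that left out 1 library (adjusted p 0.0772 to 0.110). *Inhbb*, which forms activin B, was at 0 in all ENCDC libraries and had 16, 8, 8 and 2 counts in gut cells, at least 11.3-fold lower in ENCDCs with a floor of 3 counts over the 4 libraries (adjusted p = 8.89e-03).

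Of 8 BMP ligands, 7 were tested. *Bmp7* was higher in ENCDCs (14.3%, against 17.0% of all genes). *Bmp2*, *Bmp3*, *Bmp4*, *Bmp5* and *Bmp6* were lower (71.4%, against 20.9%). Counts of *Bmp7* (chr2:172868012-172940321, minus strand) were 2429, 2486, 1344 and 2373 in ENCDCs and 453, 466, 633 and 683 in gut cells. Replicate 3 was again the lowest ENCDC library, and it was still above every gut library. Normalized counts of *Bmp7* averaged 2199 ± 567 and 550.0 ± 118 (SD, n = 4 each; log2 fold change 2.00, SE 0.22, adjusted p = 3.04e-05). Counts of *Bmp4* (chr14:46383520-46390669, minus strand) were 31, 15, 93 and 39 in ENCDCs and 1325, 953, 1204 and 1347 in gut cells. The log2 fold change of *Bmp4* was -4.71 (SE 0.41, adjusted p = 5.75e-06), and it was -5.35 without ENCDC replicate 3, the library with the most *Bmp4*.

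The other BMP ligands that were lower had less than 50 counts in any ENCDC library. Counts of *Bmp3*, an atypical member that opposes other BMPs, were 14, 41, 0 and 42 in ENCDCs and 449, 511, 580 and 354 in gut cells (log2 fold change -4.23, SE 0.66, adjusted p = 4.36e-04). Counts of *Bmp5* were 2, 10, 33 and 0 in ENCDCs and 281, 261, 303 and 322 in gut cells (log2 fold change -4.64, SE 0.76, adjusted p = 6.48e-04, and -6.09 without ENCDC replicate 3). Of the *Bmp5* exon bases, 46.7% are shared with the opposite-strand gene *Gm26903*, whose mean count was 2.63. Counts of *Bmp6* were 22, 0, 1 and 17 in ENCDCs and 145, 171, 202 and 158 in gut cells (log2 fold change -4.01, SE 0.83, adjusted p = 2.79e-03, and -4.73 without ENCDC replicate 1). It shares 224 exon bases with *Txndc5* on the other strand, which had a mean count of 5799. Counts of *Bmp2* were 1, 16, 0 and 0 in ENCDCs and 41, 82, 56 and 77 in gut cells, with a log2 fold change of -3.83 (SE 1.09, adjusted p = 0.0169) that was -7.09 without ENCDC replicate 2. None of these 4 genes overlapped between the populations, with gut cells higher, as for 21.3% of all genes.

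*Bmp8b* and *Bmp8a* are closely related genes, and how reads that fit both were counted was not tested. *Bmp8b* had 13, 9, 2 and 1 counts in ENCDCs and 0, 2, 14 and 2 in gut cells, did not pass the test (log2 fold change 0.50, adjusted p = 0.772), and also overlaps *Ppie* on the opposite strand. *Bmp8a* had 7, 0, 0 and 0 counts in ENCDCs and 0, 1, 4 and 0 in gut cells, too few to test. Per kilobase, *Bmp7* made up 95.5%, 96.6%, 86.9% and 95.5% of the summed BMP ligand level in ENCDCs (93.6% ± 4.52, SD, n = 4) and 15.8% ± 2.2 in gut cells. *Bmp4* made up 4.2% ± 4.43 in ENCDCs, where replicate 3 was at 10.8% and the mean without it was 2.01%, and 61.2% ± 4.43 in gut cells. *Bmp1*, which carries the family name but is a secreted protease that cleaves procollagen and chordin, had counts of 1304, 928, 1674 and 1331 in ENCDCs and 2833, 2873, 2933 and 2779 in gut cells (log2 fold change -1.08, SE 0.15, adjusted p = 1.82e-04).

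**Figure D2:**
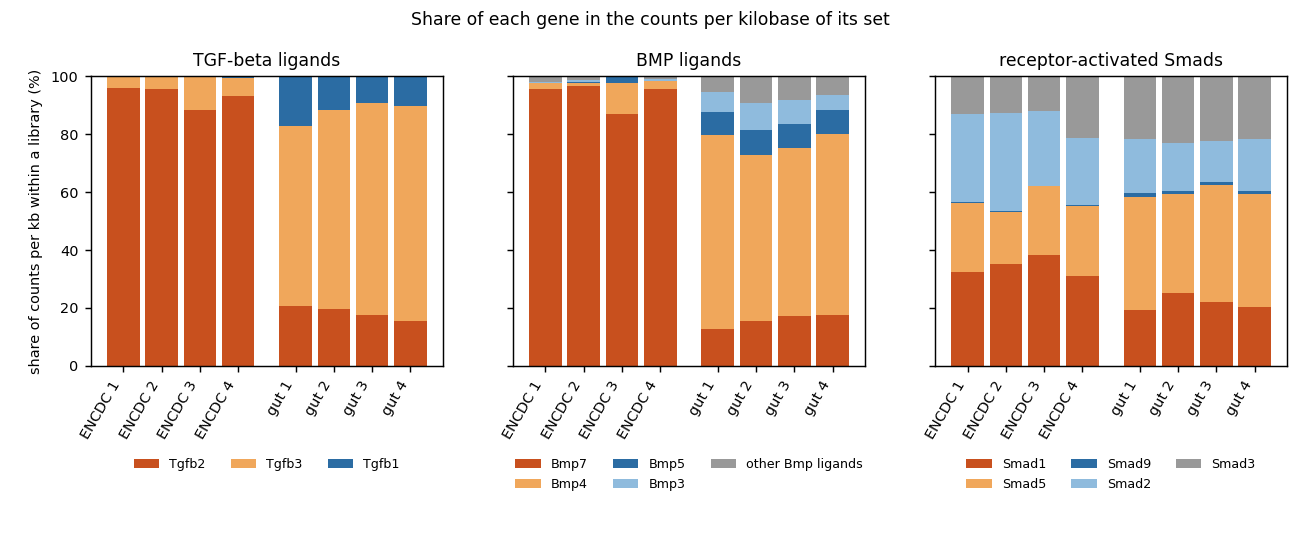
Share of each gene, in percent of the counts per kilobase of annotated exon of its set within a library, for TGF-beta ligands, BMP ligands and receptor-activated Smads, with 1 bar for each of the 8 libraries. *Tgfb2* and *Bmp7* fill 86.9% or more of their bars in every ENCDC library, while *Tgfb3* and *Bmp4* are the largest parts in every gut library.

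Of 9 GDF ligands, 8 were tested, 4 were lower in ENCDCs (50.0%, against 20.9% of all genes) and none was higher. *Gdf10*, a relative of *Bmp3*, had the highest level per kilobase among them, with 287, 304, 434 and 310 counts in ENCDCs and 1054, 1196, 1086 and 1335 in gut cells (log2 fold change -1.76, SE 0.16, adjusted p = 6.81e-06). *Gdf6*, known from joint formation, had 5, 2, 0 and 16 counts in ENCDCs and 185, 170, 292 and 256 in gut cells (log2 fold change -5.21, SE 0.71, adjusted p = 1.76e-04, and -6.48 without ENCDC replicate 4). Neither gene overlapped between the populations, with gut cells higher, as for 21.3% of all genes. *Gdf3*, a nodal-related ligand, was at 0 in all 4 ENCDC libraries and had 19, 65, 47 and 25 counts in gut cells, at least 52.0-fold lower in ENCDCs (adjusted p = 6.40e-04). *Gdf2*, the circulating ligand also called BMP9, was likewise at 0 in ENCDCs, with 25, 47, 32 and 13 counts in gut cells, at least 39.0-fold lower (adjusted p = 9.28e-04).

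The other GDFs did not pass the test. *Gdf11*, an activin-like ligand of axial patterning, had 201, 171, 108 and 213 counts in ENCDCs and 173, 106, 107 and 116 in gut cells (log2 fold change 0.52, adjusted p = 0.188, and adjusted p = 0.0431 without ENCDC replicate 3). *Gdf9*, best known from the oocyte, had 19, 17, 16 and 45 counts in ENCDCs and 15, 19, 33 and 49 in gut cells (log2 fold change -0.21, adjusted p = 0.820). *Gdf5*, a ligand of joint formation, had 6, 11, 0 and 3 counts in ENCDCs and 37, 36, 21 and 12 in gut cells. It did not overlap, and its adjusted p was 0.0651 (log2 fold change -2.32), or 0.0422 without ENCDC replicate 2. The gene *Gm15557* on the opposite strand shares 40.3% of its exon bases. *Gdf15*, a divergent and stress-induced ligand, had 1, 1, 0 and 3 counts in ENCDCs and 9, 4, 9 and 5 in gut cells, also without overlap (log2 fold change -2.27, adjusted p = 0.0829). *Gdf7* was seen only as 2 counts in ENCDC replicate 1, which allows no fold. Over the 3 ligand groups, 21 of 23 genes were tested, with a median log2 fold change of -3.14. Of these, 2 were higher (9.52%, against 17.0% of all genes) and 14 were lower (66.7%, against 20.9%).

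The 4 secreted antagonists were lower in ENCDCs, as were 20.9% of all genes, with a median log2 fold change of -2.85. Follistatin (*Fst*), which binds activins, had 57, 74, 255 and 80 counts in ENCDCs and 2067, 2530, 1913 and 2681 in gut cells. ENCDC replicate 3 stood above the other ENCDC libraries for *Fst*, and its log2 fold change of -4.26 (SE 0.41, adjusted p = 1.28e-05) was -4.97 without that library. Counts of gremlin 1 (*Grem1*), which binds BMPs, were 22, 18, 17 and 1 in ENCDCs and 126, 181, 166 and 85 in gut cells (log2 fold change -3.21, SE 0.62, adjusted p = 1.95e-03). Chordin (*Chrd*), the BMP antagonist that the *Bmp1* protease cleaves, had 29, 14, 48 and 46 counts in ENCDCs and 155, 106, 101 and 144 in gut cells (log2 fold change -1.83, SE 0.42, adjusted p = 5.38e-03). For both genes every gut library was above every ENCDC library. The BMP antagonist noggin (*Nog*) had 8, 13, 6 and 3 counts in ENCDCs and 37, 46, 44 and 49 in gut cells (log2 fold change -2.49, SE 0.57, adjusted p = 5.42e-03). None of these antagonists overlapped between the populations, with gut cells higher, as for 21.3% of all genes.

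**Figure D3:**
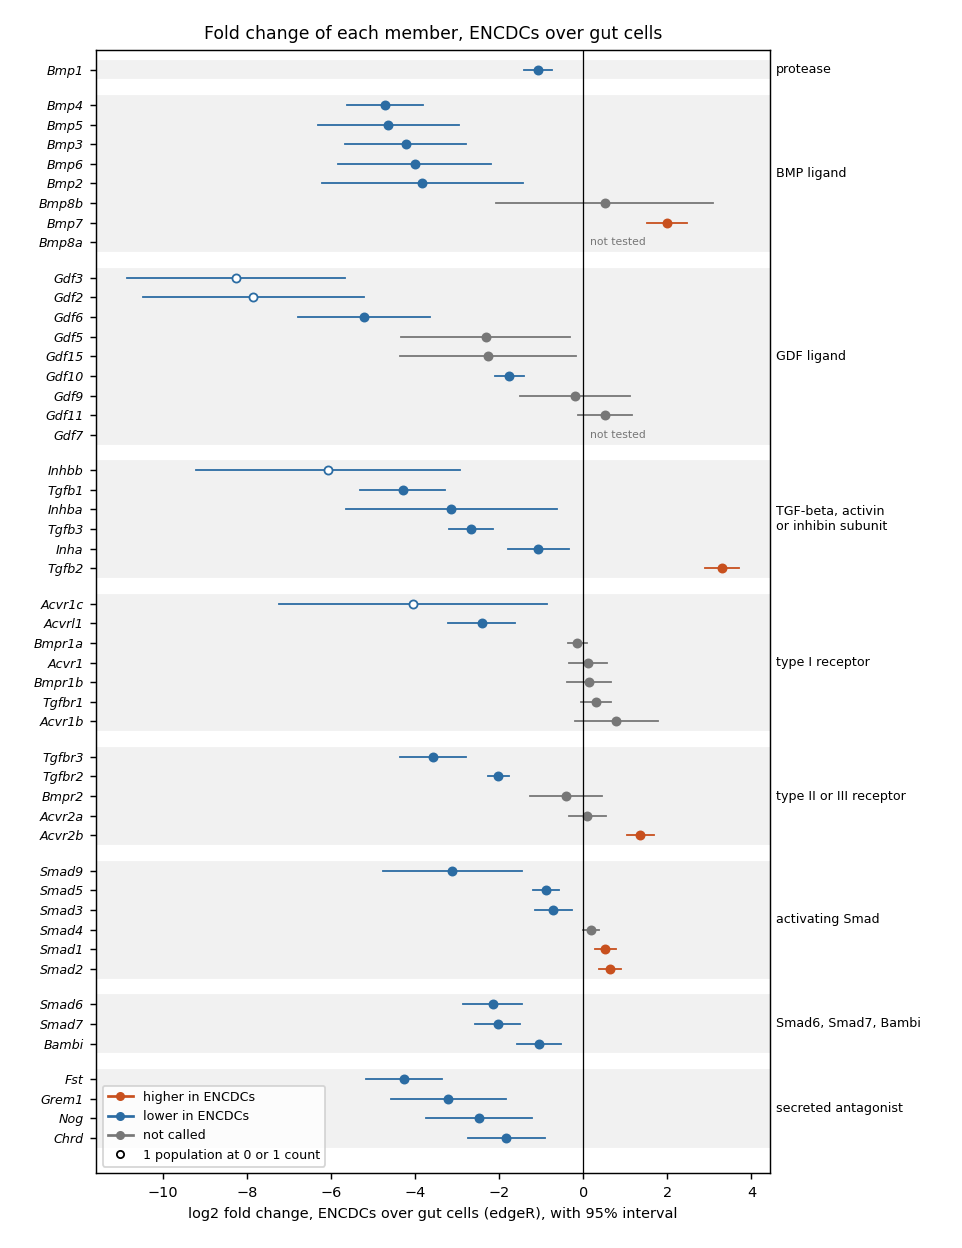
Log2 fold change of each tested member, ENCDCs over gut cells, with its 95% interval, grouped by role, filled by call and open where a population had 0 or 1 count. Ligands and antagonists lie mostly left of 0, most type I receptors lie near 0, and *Bmp8a* and *Gdf7* were not tested.

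Of the 12 receptors, 1 was higher in ENCDCs (8.33%, against 17.0% of all genes), 4 were lower (33.3%, against 20.9%) and 7 did not pass the test, with a median log2 fold change of -0.0227. The call of 1 of the 4, *Acvr1c*, was lost in 7 of the 8 fits without 1 library. Among 7 type I receptors none was higher. *Bmpr1a*, a receptor for BMPs, had counts of 3540, 3423, 2879 and 3877 in ENCDCs and 4180, 3680, 4072 and 3724 in gut cells. The populations overlapped, and the interval of the log2 fold change of *Bmpr1a* ran from -0.37 to 0.09 around -0.14 (adjusted p = 0.329). *Tgfbr1*, the type I receptor for TGF-betas, had counts of 2878, 2867, 2542 and 4256 in ENCDCs and 2822, 2444, 2997 and 2317 in gut cells, also overlapping (log2 fold change 0.30, interval -0.05 to 0.65, adjusted p = 0.173).

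*Acvr1*, another BMP receptor, had 489, 336, 282 and 439 counts in ENCDCs and 457, 324, 362 and 335 in gut cells (log2 fold change 0.12, interval -0.34 to 0.57, adjusted p = 0.698). *Bmpr1b* had 163, 200, 179 and 164 counts in ENCDCs and 125, 163, 221 and 154 in gut cells (log2 fold change 0.14, interval -0.38 to 0.66, adjusted p = 0.687). Both genes overlapped between the populations. The activin receptor *Acvr1b* had 70, 101, 26 and 75 counts in ENCDCs and 36, 41, 47 and 39 in gut cells. ENCDC replicate 3 alone was below the gut cells for *Acvr1b*, whose adjusted p was 0.196 (log2 fold change 0.79, interval -0.19 to 1.77) and 0.0274 without that library. *Acvrl1*, a receptor of vessel endothelium, had 48, 43, 147 and 54 counts in ENCDCs and 384, 390, 423 and 416 in gut cells. It was lower in ENCDCs (log2 fold change -2.42, SE 0.37, adjusted p = 3.58e-04), at -3.00 without ENCDC replicate 3. Endothelial markers were lower for 3 of 6 genes and summed to 15.2% to 24.2% of their gut mean in ENCDCs, and their part in the *Acvrl1* difference was not tested. *Acvr1c*, a receptor for activins and nodal, had 1 count over the 4 ENCDC libraries and 2, 10, 13 and 0 in gut cells, a ratio of 25.0 with an exact counting interval of 4.09 to 1030.0. It overlapped between the populations, and its adjusted p of 0.0471 reached up to 0.125 in the fits without 1 library.

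Among the type II and type III receptors, *Acvr2b* was higher in ENCDCs and *Tgfbr2* and *Tgfbr3* were lower. Counts of *Acvr2b* (chr9:119402118-119434995, plus strand), a receptor for activins and several BMPs and GDFs, were 1397, 1337, 1136 and 1191 in ENCDCs and 492, 409, 624 and 522 in gut cells. The ENCDC libraries lay close together and all above the gut libraries (log2 fold change 1.35, SE 0.14, adjusted p = 2.74e-05). *Acvr2a*, its close relative, had 992, 968, 1060 and 1717 counts in ENCDCs and 1323, 1005, 1321 and 955 in gut cells, with overlap (log2 fold change 0.09, interval -0.34 to 0.53, adjusted p = 0.749). Of the *Acvr2a* exon bases 7.84% are shared with *Orc4* on the opposite strand. Counts of *Tgfbr2* (chr9:116084293-116175360, minus strand), the type II receptor that binds TGF-betas, were 445, 394, 413 and 479 in ENCDCs and 1789, 1700, 2029 and 1763 in gut cells. It was lower in ENCDCs with little spread in either population (log2 fold change -2.02, SE 0.11, adjusted p = 2.27e-07). *Tgfbr3*, or betaglycan, which presents TGF-beta2 to the signalling receptors, had 79, 68, 226 and 69 counts in ENCDCs and 1275, 1332, 1550 and 1235 in gut cells (log2 fold change -3.56, SE 0.36, adjusted p = 1.68e-05, and -4.17 without ENCDC replicate 3). Counts of *Bmpr2*, the BMP type II receptor, were 305, 308, 62 and 238 in ENCDCs and 298, 288, 362 and 307 in gut cells. ENCDC replicate 3 was the lowest library for *Bmpr2*, and the interval was wide (log2 fold change -0.41, -1.26 to 0.45, adjusted p = 0.451).

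Of 6 activating Smads, *Smad1* and *Smad2* were higher in ENCDCs (33.3%, against 17.0% of all genes). *Smad3*, *Smad5* and *Smad9* were lower (50.0%, against 20.9%), and *Smad4* did not pass the test. Counts of *Smad2*, which answers TGF-betas and activins, were 2419, 2327, 1848 and 1788 in ENCDCs and 1523, 1377, 1251 and 1452 in gut cells (log2 fold change 0.63, SE 0.12, adjusted p = 1.92e-03). Counts of *Smad3*, its partner in the same branch, were 635, 549, 534 and 1024 in ENCDCs and 1103, 1193, 1237 and 1120 in gut cells. The highest ENCDC library for *Smad3*, replicate 4, was just below the lowest gut library (log2 fold change -0.71, SE 0.20, adjusted p = 0.0159). Counts of *Smad1*, of the BMP branch, were 1821, 1728, 1944 and 1699 in ENCDCs and 1118, 1485, 1391 and 1175 in gut cells (log2 fold change 0.52, SE 0.11, adjusted p = 3.79e-03). *Smad5*, of the same branch, went the other way, with 1591, 1036, 1447 and 1585 counts in ENCDCs and 2679, 2410, 3031 and 2703 in gut cells (log2 fold change -0.89, SE 0.14, adjusted p = 5.22e-04). In each branch 1 Smad was therefore higher and its best-measured partner lower, without overlap between the populations. Of all genes, 16.9% had every ENCDC library above every gut library, and 21.3% the reverse. *Smad1*, *Smad2*, *Smad3* and *Smad5* were not called against a 2-fold change. *Smad9*, the lowest of them per kilobase, had 9, 10, 0 and 9 counts in ENCDCs and 82, 53, 61 and 60 in gut cells (log2 fold change -3.12, SE 0.75, adjusted p = 7.28e-03).

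*Smad4*, the partner of both branches, had 3683, 3504, 3289 and 3759 counts in ENCDCs and 3180, 3249, 3440 and 3062 in gut cells. They overlapped (log2 fold change 0.19, interval 0.0042 to 0.37, adjusted p = 0.101), and the adjusted p was 0.0388 without ENCDC replicate 3. Per kilobase of annotated exon, *Smad4* was the highest member in both populations, at 976 counts per kilobase in ENCDCs and 856 in gut cells. In ENCDCs it was followed by *Tgfb2* (638 counts per kilobase), *Bmpr1a* (550.0), *Bmp7* (547), *Tgfbr1* (489) and *Acvr2b* (328). The levels of *Tgfb2*, *Bmpr1a*, *Bmp7* and *Tgfbr1* lay within the spread of *Tgfb2* and *Bmp7* between libraries, so their order is uncertain. In gut cells *Bmpr1a* (606 counts per kilobase), *Bmp4* (528), *Fst* (493), *Tgfbr1* (398) and *Smad5* (359) came next. With coding length in place of exon length, *Tgfb2* came first in ENCDCs and *Bmpr1a* in gut cells. The BMP-branch Smads (*Smad1*, *Smad5* and *Smad9*) made up 56.9% ± 3.76 of the receptor-activated Smad level per kilobase in ENCDCs (SD, n = 4) and 61.2% ± 1.73 in gut cells. These shares overlapped, with ENCDC replicate 3 at 62.2% inside the gut range of 59.8% to 63.7%. The interval the table gives for *Smad2*, however, ends before the annotated gene does and holds 3749 of its 8781 exon bases. With the length inside that interval, an alternative chosen after seeing the data, *Smad2* stood at 569 counts per kilobase in place of 243 in ENCDCs and at 367 in place of 157 in gut cells. The BMP-branch share was then 41.3% ± 3.98 in ENCDCs and 49.9% ± 2.5 in gut cells, and it did not overlap (36.7% to 46.2% against 47.8% to 53.5%). Which length matches the counted reads is not given in the sources used here, so neither the place of *Smad2* among the members nor the order of the branches is settled.

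The 3 inhibitors that act inside the cell or at its surface were all lower in ENCDCs, as were 20.9% of all genes. Their median log2 fold change was -2.04. Counts of *Smad6*, which restrains BMP signalling, were 65, 51, 115 and 50 in ENCDCs and 344, 223, 419 and 310 in gut cells (log2 fold change -2.16, SE 0.32, adjusted p = 3.02e-04). Counts of *Smad7*, which restrains both branches, were 61, 73, 53 and 45 in ENCDCs and 241, 217, 254 and 276 in gut cells (log2 fold change -2.04, SE 0.25, adjusted p = 6.91e-05). *Bambi*, a receptor-like protein without a kinase, had 523, 392, 543 and 223 counts in ENCDCs and 791, 817, 1073 and 908 in gut cells (log2 fold change -1.05, SE 0.24, adjusted p = 5.40e-03). In none of the 3 did the populations overlap, with gut cells higher, as for 21.3% of all genes.

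A list of 43 other extracellular modulators and ligands of the pathway had 36 genes tested, with a median log2 fold change of -2.38. In ENCDCs, 1 was higher (2.78%, against 17.0% of all genes) and 25 were lower (69.4%, against 20.9%). *Dcn*, among the lower genes, also stands on the list of mesenchyme markers. *Nodal* and *Inhbc* had no row. The gene that was higher was *Rgmb*, a BMP co-receptor also called DRAGON, with 3944, 3864, 2453 and 4893 counts in ENCDCs and 1279, 1359, 1167 and 1348 in gut cells (log2 fold change 1.61, SE 0.18, adjusted p = 3.95e-05). The lower genes with the highest mean counts were *Fstl1*, a follistatin-like glycoprotein (log2 fold change -1.72), the microfibril proteins *Fbn2* (-1.55) and *Fbn1* (-2.99), the chordin partner *Twsg1* (-0.70) and *Ltbp4*, which binds latent TGF-beta (-3.92). *Ltbp4* had 162, 84, 720 and 160 counts in ENCDCs and 4525, 3614, 5225 and 4202 in gut cells, with replicate 3 again the highest ENCDC library.

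Of 36 intracellular regulators and Smad cofactors, all tested, 7 were higher (19.4%, near the 17.0% of all genes), 9 were lower (25.0%, near 20.9%) and 20 did not pass the test, with a median log2 fold change of -0.138. The 7 became 3 without gut replicate 2 and 0 against a 2-fold change. The higher genes with the highest mean counts were *Fkbp1a* (log2 fold change 0.50), which keeps type I receptors inactive, *Strap* (0.29), a partner of *Smad7*, the Smad-binding repressor *Zeb2* (0.63), which is needed for enteric neural crest development, the kinase *Hipk2* (1.03) and the Smad corepressor *Skil* (0.99). The lower genes with the highest mean counts were the phosphatases *Ctdsp2* (log2 fold change -0.87) and *Ctdspl* (-1.66), the corepressor *Ski* (-0.85), the repressor *Zeb1* (-0.72) and the ubiquitin ligase *Wwp1* (-1.12). *Zeb2* and *Skil* were higher while their relatives *Zeb1* and *Ski* were lower. Other related genes on the list did not split this way. *Smurf1* and *Smurf2*, *Tgif1* and *Tgif2*, and *Zfp423* and *Zfp521* were not called. *Tab1* was higher and *Tab2* not called. *Zeb2*, *Hipk2* and *Skil* overlapped between the populations, since ENCDC replicate 3 (2028 for *Zeb2*, 1829 for *Hipk2* and 616 for *Skil*) fell among the gut libraries.

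Of 23 genes known as targets of BMP or TGF-beta signalling in other settings, 21 were tested, 5 were higher (23.8%, against 17.0% of all genes) and 11 were lower (52.4%, against 20.9%), with a median log2 fold change of -1.10. The higher genes were the Id family members *Id3* (log2 fold change 1.40) and *Id4* (1.48), *Hey1* (1.62), *Atoh8* (0.93) and the homeobox gene *Dlx5* (6.20). Counts of *Id3*, an inhibitor of basic helix-loop-helix factors, were 9404, 9281, 9687 and 7789 in ENCDCs and 3216, 3387, 3695 and 3822 in gut cells (SE 0.09, adjusted p = 6.83e-07). *Id1*, the best known BMP target of that family, had 951, 1089, 1192 and 781 counts in ENCDCs and 983, 1110, 957 and 1143 in gut cells (log2 fold change -0.02, adjusted p = 0.938). Counts of *Id2* were 3579, 3679, 3645 and 3085 in ENCDCs and 3920, 5039, 3970 and 4625 in gut cells (log2 fold change -0.28, adjusted p = 0.0530). *Id1* and *Id2* are not in the rule for naming and were added after their values were seen. Lower genes with the highest mean counts were the collagens *Col1a2* (log2 fold change -4.25) and *Col1a1* (-4.09), the matrix proteins *Tgfbi* (-4.61) and *Fn1* (-2.18) and the transcription factor *Tsc22d1* (-1.10). *Col1a1* and *Col1a2* also stand on the list of mesenchyme markers, so their counts describe both lists.

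The 29 members that were lower in ENCDCs were next set beside the markers of other bowel cells in the same libraries. Of the 10 mesenchyme markers 9 were lower and 1, *Fbln1*, was higher in ENCDCs. All 8 smooth muscle, all 7 epithelial, 5 of 6 mesothelial, 3 of 6 endothelial, all 6 macrophage and all 7 erythroid markers were lower. Relative to the gut mean, the median of the 29 members was 12.3%, 11.5%, 12.4% and 14.1% in ENCDC replicates 1 to 4. Mesenchyme markers stood at 6.86%, 4.24%, 15.0% and 5.44% in the same libraries. *Gdf2*, *Gdf3* and *Inhbb* were at 0 in all ENCDC libraries, and for the other 26 members the highest ENCDC library was replicate 3 for 12, replicate 4 for 8, replicate 2 for 4 and replicate 1 for 2. *Bmp4*, *Bmp5*, *Fst*, *Tgfbr3* and *Acvrl1* were among those highest in replicate 3, where the mesenchyme, smooth muscle, epithelial and mesothelial sums were also highest. Other lower members were lowest in replicate 3, with *Bmp3*, *Smad9* and *Gdf6* at 0 and *Tgfb1* and *Smad3* below the other ENCDC libraries. The part of other bowel cells in the ENCDC values was not tested. Without ENCDC replicate 3 the same 5 members were higher, together with *Acvr1b*, *Gdf11* and *Smad4*, and 28 were lower. Over all genes, 3527 were higher and 4213 lower in that fit, against 3212 and 3946 with all libraries.

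**Figure D4:**
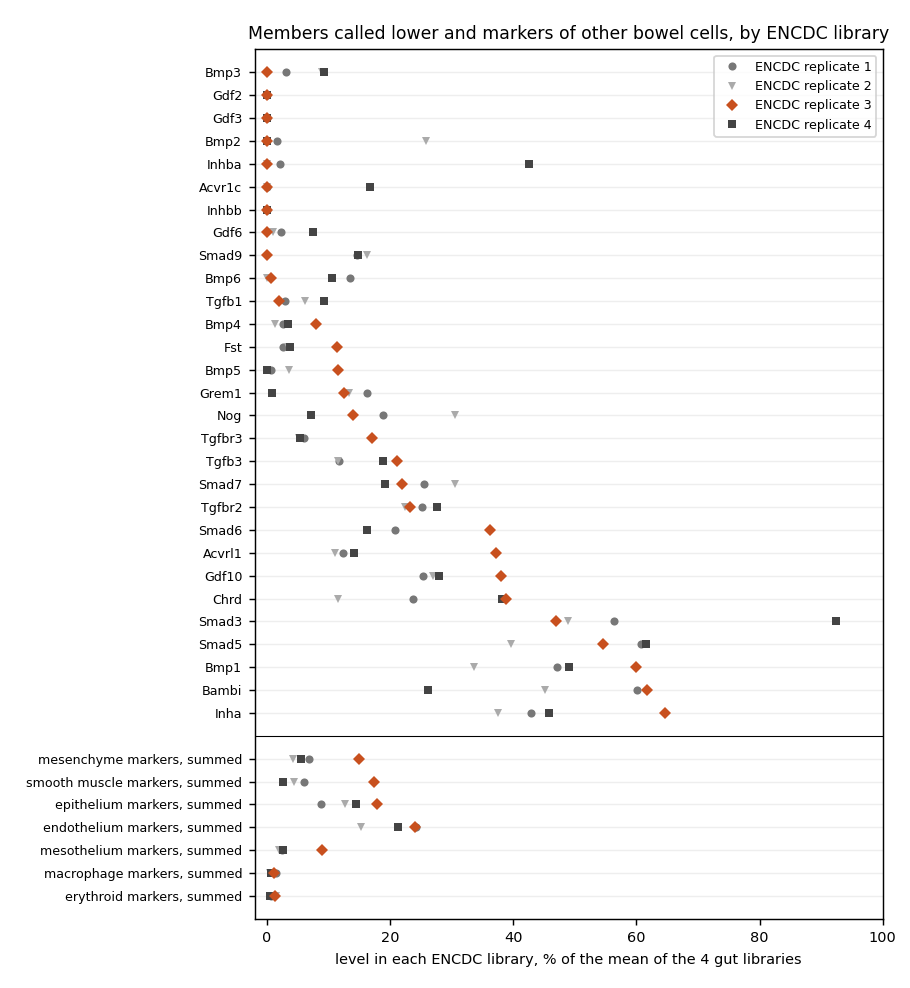
Level in each ENCDC library, in percent of the mean of the 4 gut libraries, for the 29 members lower in ENCDCs (above the line) and for summed markers of other bowel cells (below it), with 1 symbol for each ENCDC replicate. Replicate 3 (diamonds) is the highest for the mesenchyme, smooth muscle and mesothelium sums and for members such as *Bmp4*, *Fst* and *Tgfbr3*, while *Bmp3*, *Smad9* and *Gdf6* are at 0 in it.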

How the data were processed

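mRNA was sequenced from 4 ENCDC and 4 gut libraries. STAR 2.4.2a (mm10) and PORT were used by the authors, who deposited a whole-number read count per gene, the minimum count after PORT normalization (the design text speaks of CPM of small RNAs). Depth was therefore nearly equal, 13250893 to 13267220 counts per library, and the highest total exceeded the lowest by 0.123%. The 49 members described matched the GENCODE M21 annotation by ID, and 1 further member is not reported here.

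A gene was tested where 1 population had a mean count of 3 or more and counts in 3 or more of its 4 libraries. Tests were run in R 4.3.3 with edgeR 4.0.16 (TMM factors, quasi-likelihood F test, Benjamini-Hochberg adjustment), in place of the voom method of the study, and called at an adjusted p under 0.05. Alternatives were voom in limma 3.58.1, DESeq2 1.42.0, other factors and filters, a replicate block, a 2-fold threshold, other gene lengths and leaving out each library. Bounds and intervals for genes at 0 or 1 count (floor 3 counts, 95% exact interval) cover counting error only.

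Members, roles, lists and tests were chosen with earlier results of these data known. The text names every other member. Counts in every library are given at least for the 5 tested members of a role with the highest mean count and for called members with a mean of at least 100 in the higher population. From each list it names up to 5 called genes in each direction by mean count, and members whose call changes without 1 library. Sequences were not taken from chromosome 18, where 4 members lie. smRNA-seq and histology were not analysed here.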

Additional observations from a re-analysis of the deposited data

Results flagged for a closer look

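In 14 of 94 groups of 4 libraries of a tested member, 1 library stood apart from the other 3 by a gap past Dixon's critical share of the range of the group. For normally spread values chance gives such a gap in about 1 in 20 groups, a rate that does not hold for counts near 0 such as those of *Acvr1c*, *Inhba* and *Bmp2*. Of these libraries 11 were ENCDC libraries, 6 of them replicate 3.

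ENCDC replicate 3 had the lowest *Bmp7* count (1344, others 2373 to 2486) and *Smad9* at 0 (others 9 to 10). It had the highest ENCDC counts of *Gdf10* (434, others 287 to 310), *Acvrl1* (147, others 43 to 54), *Tgfbr3* (226, others 68 to 79) and *Fst* (255, others 57 to 80). Mesenchyme markers summed to 15.0% of the gut mean in that library, against 4.24% to 6.86% in the other ENCDC libraries. Genes with a count above 0 numbered 17953 there, against 19123 to 20070 in the other ENCDC libraries. The part of either in these counts was not tested.

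ENCDC replicate 4 had the highest ENCDC counts of *Gdf9* (45, others 16 to 19), *Inhba* (20, others 0 to 1) and *Acvr2a* (1717, others 968 to 1060), and it held the only count of *Acvr1c* in ENCDCs (1, others 0). ENCDC replicate 2 had 16 counts of *Bmp2* (others 0 to 1). Among gut libraries, replicate 1 was highest for *Tgfb1* (285, others 190 to 197) and *Gdf11* (173, others 106 to 116), and replicate 3 was highest for *Bmp8b* (14, others 0 to 2).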

How the results depend on the processing

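The 5 members higher in ENCDCs were called by DESeq2, by voom and limma, with RLE or no factors, with both other filters, with the replicate block and in each fit without 1 library. Against a 2-fold change 3 of them (*Tgfb2*, *Bmp7* and *Acvr2b*) and 21 lower members were called, with 983 genes higher and 2031 lower over all genes, 0 higher and 5 lower intracellular regulators and 7 lower targets. The lower members numbered 30 with voom and limma, 29 with DESeq2, 27 without a filter and 27 at a mean count of at least 10. Over all genes, lower calls numbered 3946 in the main fit, 4353 with voom and limma and 4279 with DESeq2. They numbered 3737 of 29092 genes without a filter and 3811 of 16186 at a mean count of at least 10. With that last filter 4 members were no longer tested, among them *Acvr1c* and *Inhbb*, which lost their calls. *Acvr1c* was not called by voom and limma or by DESeq2, which both called *Gdf5* (adjusted p = 0.0225 and 0.0248), and voom and limma also called *Gdf15* (adjusted p = 0.0454). No member changed direction or call with RLE factors or no factors. The median log2 fold change of all genes was -0.141 to -0.0389 over the alternatives.

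Same-numbered ENCDC and gut libraries did not deviate together (correlations -0.017 to 0.0146), and differently numbered ones stood at -0.0448 to 0.0526. Values this close to 0 throughout cannot tell whether the same number marks the same bowels. With a replicate block 5 members were higher and 27 lower, with 2609 genes higher and 3324 lower over all genes, and *Inha* (adjusted p = 0.0801) and *Acvr1c* (adjusted p = 0.185) were not called.

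Without 1 library, 5 to 8 members were higher (8 without ENCDC replicate 3) and 26 to 28 lower, with 2614 to 3527 genes higher and 3280 to 4213 lower over all genes. Extracellular modulators higher numbered 1 to 2 and lower 23 to 29, intracellular regulators higher 3 to 9 (3 without gut replicate 2) and lower 9 to 10, and targets higher 5 and lower 10 to 12. Of the 34 called members 31 kept their call in all 8 of these fits. Log2 fold changes of 4 uncalled members changed sign: *Bmp8b* (-0.12 without ENCDC replicate 1, highest 2.17), *Acvr1* (-0.01 without ENCDC replicate 1, highest 0.25), *Acvr2a* (-0.15 without ENCDC replicate 4, highest 0.18) and *Gdf9* (0.17 without gut replicate 4, lowest -0.70).

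Shares per kilobase without 1 library ranged, in ENCDCs and in gut cells, from 92.4% to 95.0% and 17.5% to 19.2% for *Tgfb2*, 4.67% to 7.27% and 68.1% to 72.1% for *Tgfb3*, 92.7% to 95.9% and 15.2% to 16.8% for *Bmp7*, 2.01% to 5.25% and 59.3% to 62.5% for *Bmp4* and 55.2% to 58.1% and 60.3% to 61.6% for the BMP-branch Smads. With coding length in place of exon length, gut shares were 25.2% for *Tgfb2*, 60.2% for *Tgfb3*, 20.4% for *Bmp7* and 46.6% for *Bmp4*. With the longest transcript, *Tgfb3* held 61.2% in gut cells and the BMP-branch Smads 63.7% in ENCDCs and 65.5% in gut cells. With the exon bases inside the interval of the table, added after seeing the data, the BMP-branch Smads held 41.3% in ENCDCs and 49.9% in gut cells, since *Smad2* alone became shorter. Apart from these changes of length, fits on fewer libraries and the stricter fold, the cause was not tested. Counts under about 20 in both populations limit what could be seen for *Bmp8a*, *Bmp8b*, *Gdf7*, *Gdf15*, *Inhbb* and *Acvr1c*.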
